A study of Caenorhabditis elegans with 8 samples.

Results

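Cytochrome P450 genes of Caenorhabditis elegans were examined in whole nematodes after feeding RNA interference (RNAi). Genes were chosen by name: the WormBase symbol had to start with cyp- followed by a number and a letter, and the gene had to reach 10 counts in at least 3 of the 8 libraries. Of 46748 genes in the deposited count table, 74 carried such a symbol and 61 reached the minimum. The 61 genes fall into 23 subfamilies, and all are annotated as protein coding. The other 13 were cyp-13A8, cyp-14A3, cyp-23A1, cyp-33B1, cyp-33C1, cyp-33C6, cyp-33C11, cyp-33C12, cyp-34A1, cyp-34A7, cyp-34A10, cyp-35B2 and cyp-35B3. Just inside the minimum was cyp-14A4, whose 3 highest counts were 11, 10 and 10. Just outside was cyp-23A1, which reached the minimum in 2 libraries with a highest count of 18.

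Cytochromes P450 are haem enzymes that place an oxygen atom on lipids, sterols and foreign compounds, drawing electrons through NADPH-cytochrome P450 reductase. In nematodes some act on the animal's own lipids, in the eggshell, in eicosanoid synthesis or in hormone synthesis, and others, many of them in the intestine, are induced by foreign compounds. The numbers and letters of the names follow sequence: a number is a family and a letter a subfamily, and genes of a subfamily often lie side by side in the genome.

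All animals were of the wild-type strain N2. They were fed bacteria carrying either L4440, the feeding plasmid with no insert (2 libraries), an hlh-2 RNAi plasmid (3 libraries) or a lin-32 RNAi plasmid (3 libraries). HLH-2 and LIN-32 are basic helix-loop-helix transcription factors with roles in making neurons, and the series asks how impairing either of them alters expression across the genome. The labels name neither the stage of the animals nor separate cultures for the libraries of a group. P-values therefore measure the spread between libraries, which may be technical. In RNA from whole animals, fewer cells of a type and less RNA per cell cannot be told apart.

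Library totals ran from 22380739 to 34814808 counts. The unit of level is CPM, in which each count is divided by its library size, corrected for composition, so that libraries can be compared. The hlh-2 transcript was at 50.6 and 48.98 CPM in L4440 and 49.03, 48.9 and 53.9 CPM under the hlh-2 RNAi label, but 22.98, 27.8 and 15.6 CPM under the lin-32 RNAi label. The hlh-2 transcript therefore went against its label, and the names hlh-2 RNAi and lin-32 RNAi below stand for the libraries so labelled. The lin-32 transcript was at 1.497 and 1.42 CPM in L4440, 2.41, 3.40 and 2.06 CPM under the hlh-2 RNAi label and 0.976, 0.678 and 0.764 CPM under the lin-32 RNAi label, lowest where its label says so. Of the markers listed for intestine, hypodermis, neurons, germline, muscle and excretory cell with glia, opt-2 and mir-228 were not analysed here, and none of the others was at 0 in all libraries. Differences were tested with edgeR's quasi-likelihood test over 14272 genes, with a threshold of 0.05 on the p adjusted by Benjamini-Hochberg over all of them. With lin-32 RNAi against L4440 the lower level of lin-32 did not pass (log2 fold change -0.86, edgeR adjusted p = 0.233). That of hlh-2 did (-1.16, edgeR adjusted p = 0.0041). Of the 61 P450 genes 60 entered the test, all but cyp-14A4.

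Most P450 transcripts were scarce, and a handful made up most of the total. Per kb of annotated exon the median P450 gene stood at 1.78 CPM against 8.11 CPM for all tested genes with an annotated length. The range ran from 0.177 CPM per kb for cyp-14A4 to 99.0 CPM per kb for cyp-31A2. Next in level per length came cyp-31A3 (66.5 CPM per kb), cyp-31A5 (65.9), cyp-44A1 (39.7), cyp-35A2 (38.2), cyp-13A5 (28.6), cyp-35C1 (22.9) and cyp-25A1 (20.9). The span of a protein-coding gene on the opposite strand overlaps cyp-31A5, and the kit does not mark strand. The genes cyp-31A2 and cyp-31A3 make the lipid layer that seals the eggshell, and CYP-44A1 is the P450 of mitochondrial type. The CYP-31A subfamily held 43.4% of the summed P450 level per length, CYP-35A 8.41%, CYP-25A 8.39%, CYP-44A 7.46% and CYP-13A 7.40%.

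**Figure D1:**
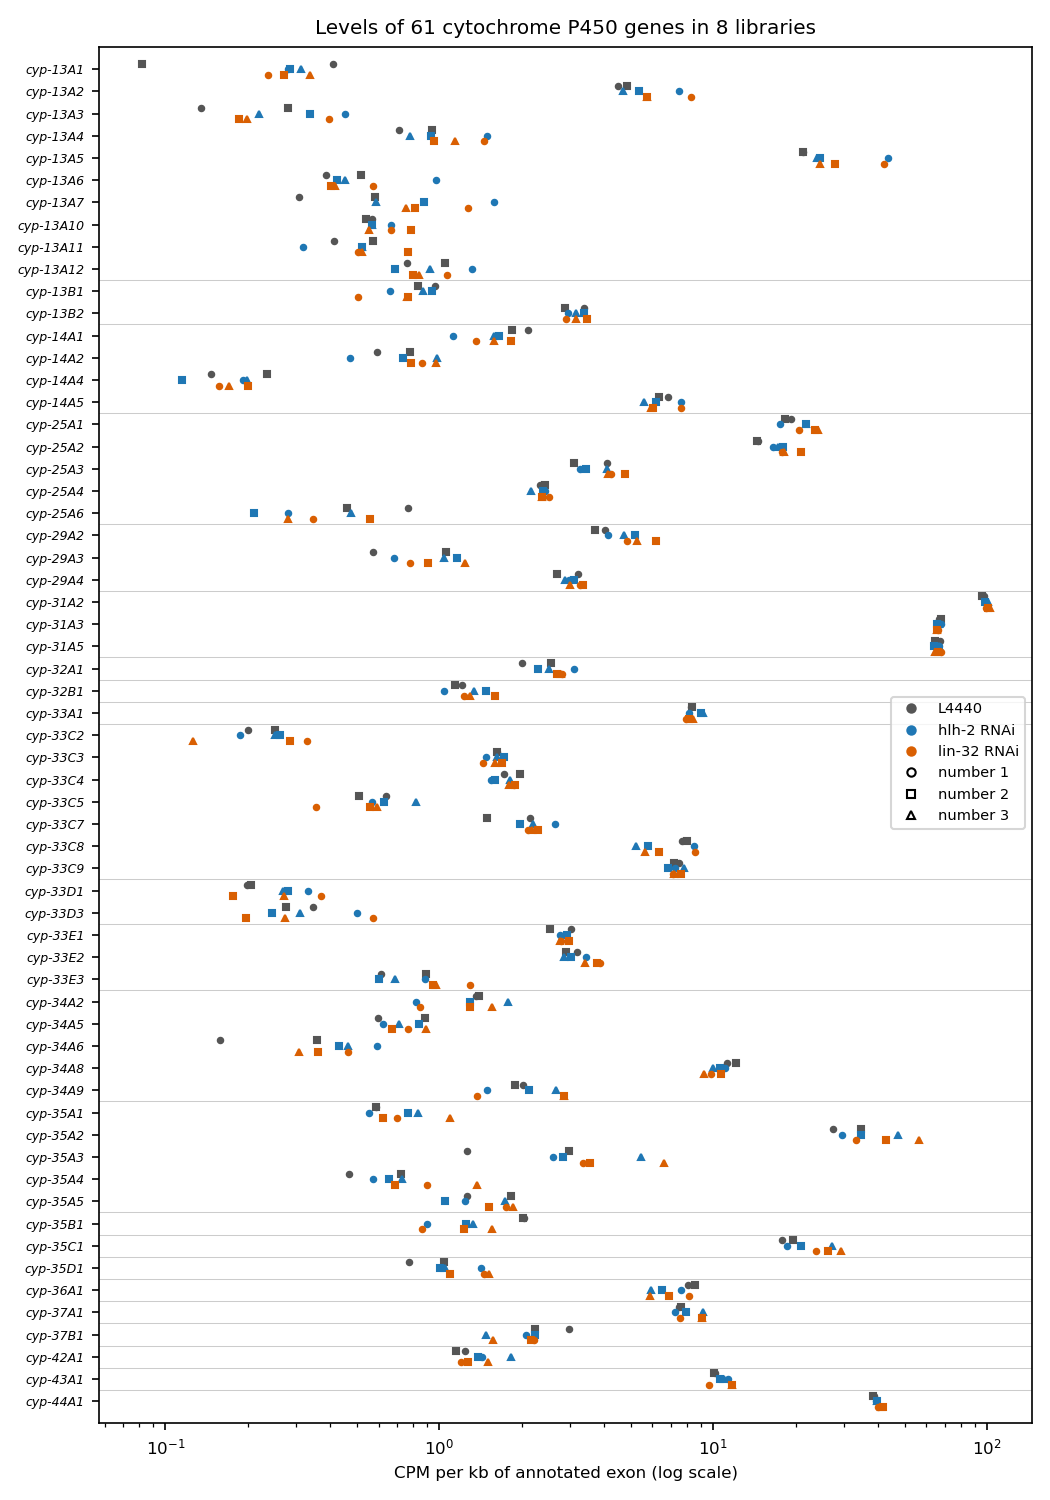
Level of each of the 61 P450 genes in each of the 8 libraries, in CPM per kb of annotated exon on a log scale, with genes grouped by subfamily, colour for the group and marker shape for the number a library carries in its label. The CYP-31A genes lie furthest to the right with their libraries close together, while cyp-35A3 and cyp-13A7 are spread wide.

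P450 genes differed in how much they varied among libraries of a group. The biological coefficient of variation, the spread left after counting noise, had a median of 0.103 over the 60 tested P450 genes and 0.0624 over all tested genes. It was 0.0283 for cyp-31A3, 0.0301 for cyp-31A2, 0.0306 for cyp-44A1 and 0.0322 for cyp-31A5. At the other end it was 0.283 for cyp-35A3 and 0.258 for cyp-13A7. The abundant eggshell and mitochondrial-type genes were thus the steadiest P450 genes, and the wide ones included members of subfamilies inducible by foreign compounds. The spread was not compared between genes of matched level.

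The CYP-31A genes hardly moved. The gene cyp-31A2 (WBcel235, chromosome IV, 11403961 to 11406091, plus strand) was at 159 and 157 CPM in L4440, at 160, 160 and 165 CPM with hlh-2 RNAi and at 162, 164 and 166 CPM with lin-32 RNAi. Its log2 fold changes were 0.03 ± 0.03 and 0.05 ± 0.03 (SE), and neither passed the test (adjusted p 0.913 and 0.552 by edgeR). For cyp-31A3 they were -0.02 ± 0.03 and -0.03 ± 0.03 (SE). These 2 genes are known as closely similar copies, and how reads that map to several places were counted was not stated in the sources at hand, so their separate levels are uncertain. Summed over cyp-31A2, cyp-31A3 and cyp-31A5, the level was 360 and 355 CPM in L4440, 361, 354 and 364 CPM with hlh-2 RNAi and 362, 361 and 361 CPM with lin-32 RNAi. The gene cyp-44A1, which overlaps npp-24 on the same strand, was at 60.1 and 59.3 CPM in L4440, 61.04, 61.2 and 61.3 CPM with hlh-2 RNAi and 61.8, 64.5 and 63.7 CPM with lin-32 RNAi. All 6 RNAi libraries lay above both controls, by 1.02-fold and 1.06-fold, and neither difference passed the test (edgeR adjusted p = 0.921 and 0.389).

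The summed level of all 61 genes was 797 and 806 CPM in L4440, 852, 823 and 866 CPM with hlh-2 RNAi and 876, 884 and 898 CPM with lin-32 RNAi. Every RNAi library thus lay above both controls, and every lin-32 RNAi library above every hlh-2 RNAi library. The subfamilies with the widest differences in summed CPM were CYP-13A, CYP-35A and CYP-25A. CYP-13A summed to 51.9 and 54 CPM in L4440, 101, 60.7 and 57.9 CPM with hlh-2 RNAi and 98.9, 67.8 and 61.7 CPM with lin-32 RNAi. CYP-25A summed to 66.1 and 62.3 CPM in L4440, 64.6, 74.0 and 73.8 CPM with hlh-2 RNAi and 73.5, 83.9 and 79.2 CPM with lin-32 RNAi. CYP-35A summed to 49.2 and 64.9 CPM in L4440, 54.9, 63.7 and 88.8 CPM with hlh-2 RNAi and 63.5, 78.1 and 107 CPM with lin-32 RNAi. For CYP-13A all 6 RNAi libraries were above both controls, with the library numbered 1 well above the others of its group. For CYP-25A this held for the 3 lin-32 RNAi libraries and for 2 of the 3 hlh-2 RNAi libraries, and for CYP-35A the libraries overlapped in both comparisons.

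**Figure D2:**
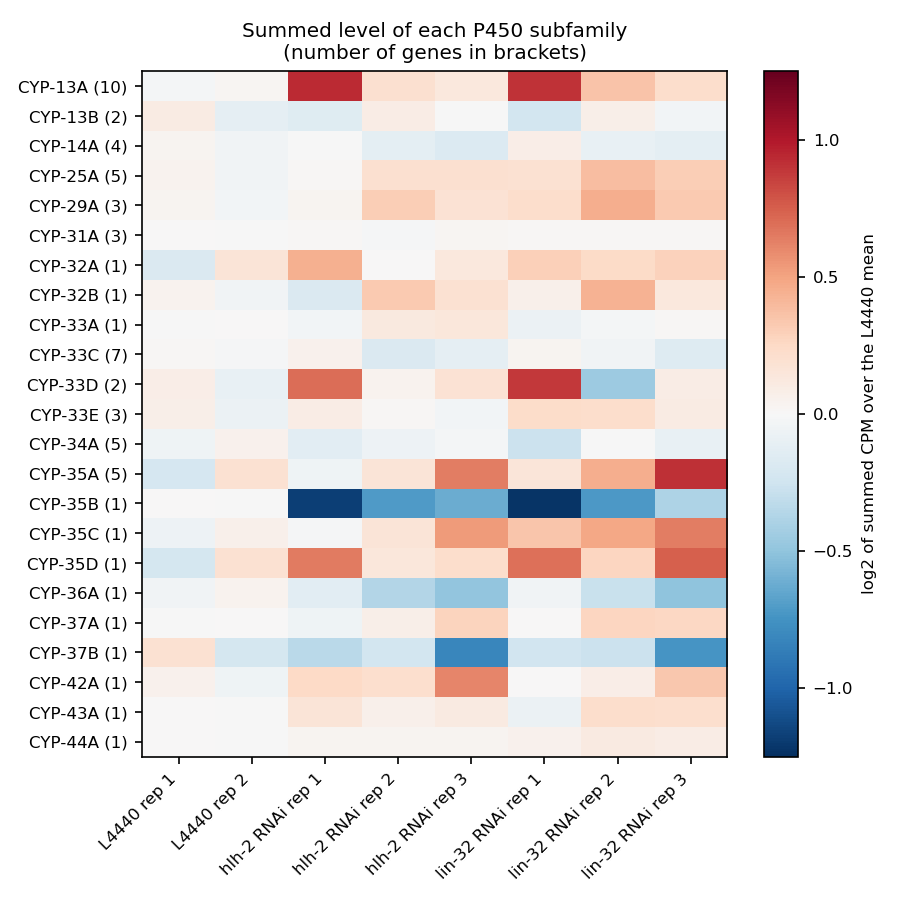
Summed CPM of each of the 23 P450 subfamilies in each library, as log2 of the ratio to the L4440 mean, with the number of genes summed in brackets. CYP-13A is highest in the RNAi libraries numbered 1, CYP-35A in those numbered 3, and CYP-35B is below the L4440 mean in all 6 RNAi libraries.

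With hlh-2 RNAi against L4440 no P450 gene passed the test, 0 of 60, where 0.203% of all tested genes did. At an unadjusted p under 0.05 there were 3 higher and 3 lower P450 genes, and 3.14% and 3.64% of all tested genes. DESeq2 called 0 P450 genes as well. The median log2 fold change was 0.08 over the P450 genes and 0.00 over all tested genes, and 41 P450 genes (68.3%) were above 0 against 49.7% of all tested genes. Libraries did not overlap between the groups for 11 higher P450 genes (18.3%, against 11.9% of all tested genes) and for 5 lower ones (8.33%, against 12.2%).

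The smallest p belonged to cyp-35B1 (chromosome V, 3939032 to 3941237, plus strand), known as a gene activated by DAF-16, the FOXO factor of the insulin pathway. It was at 3.36 and 3.34 CPM in L4440, 1.48, 2.06 and 2.18 CPM with hlh-2 RNAi and 1.43, 2.03 and 2.56 CPM with lin-32 RNAi. All 6 RNAi libraries lay below both controls. The log2 fold changes were -0.81 ± 0.22 and -0.73 ± 0.22 (SE), neither past the threshold (adjusted p 0.430 and 0.188 by edgeR). A non-coding gene on the opposite strand overlaps it, and the kit does not mark strand. The level of the daf-16 transcript itself did not pass the test in either comparison, with log2 fold changes of -0.01 and -0.02. The activity of the DAF-16 protein was not measured.

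Other P450 genes with small p in the hlh-2 RNAi libraries did not pass either. The gene cyp-13A7, which the drug rifampicin is known to induce, was at 0.499 and 0.944 CPM in L4440 and at 2.57, 1.43 and 0.952 CPM with hlh-2 RNAi, so that the lowest of these lay barely above the higher control. Its log2 fold change was 1.14 ± 0.44 (SE, edgeR adjusted p = 0.674). The gene cyp-34A6 had 0.88 ± 0.36 (SE), cyp-29A2 0.29 ± 0.13 and cyp-25A2 0.25 ± 0.08, with edgeR adjusted p from 0.516 to 0.743. On the lower side cyp-36A1, which acts downstream of the hypoxia factor HIF-1, had -0.32 ± 0.13, cyp-14A1 -0.43 ± 0.20 and cyp-37B1 -0.42 ± 0.21 (SE, edgeR adjusted p from 0.691 to 0.757). For cyp-36A1 and cyp-37B1 the span of a protein-coding gene on the opposite strand overlaps, so reads from any stretch they share cannot be told apart by strand. Whether their exons overlap was not examined.

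With lin-32 RNAi against L4440, cyp-25A2 rose and no other P450 gene passed the test, 1 of 60 against 0.743% of all tested genes (0.21% on the higher side). The gene cyp-25A2 (chromosome III, 3835221 to 3837211, plus strand) was at 22.9 and 22.6 CPM in L4440, 25.9, 28.2 and 27.0 CPM with hlh-2 RNAi and 28.0, 32.7 and 28.4 CPM with lin-32 RNAi. Every RNAi library lay above both controls, and the log2 fold change in the lin-32 RNAi libraries was 0.39 ± 0.08 (SE, edgeR adjusted p = 0.0385). On simulated data false calls in this comparison took a larger share than the threshold, so this adjusted p may be too small. The call was lost, with edgeR adjusted p from 0.0572 to 0.267, without either L4440 library, without the hlh-2 RNAi library numbered 2 or without the lin-32 RNAi library numbered 2 or 3, while the log2 value stayed between 0.31 and 0.43.

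More P450 genes leaned up than down in this comparison. At an unadjusted p under 0.05 there were 12 higher and 2 lower of the 60, against 5.77% and 6.82% of all tested genes. The median log2 fold change was 0.15 against 0.00 over all tested genes, and 44 (73.3%) were above 0 against 50.6%. Some related gene families leaned up as well (below), so the lean was not particular to P450 genes. The libraries did not overlap for 19 higher P450 genes (31.7%, against 14.4% of all tested genes) and 6 lower ones (10%, against 15.4%). The groups share the L4440 libraries with the comparison above, so the leanings of both comparisons are not independent.

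Among the higher genes short of the threshold was cyp-35C1, a member of the xenobiotic-inducible CYP-35 family. It was at 27.4 and 29.99 CPM in L4440, 28.4, 32.1 and 41.5 CPM with hlh-2 RNAi and 36.4, 40.1 and 44.8 CPM with lin-32 RNAi. The lin-32 RNAi libraries lay above both controls and the hlh-2 RNAi libraries overlapped them. The log2 fold change was 0.49 ± 0.13 with lin-32 RNAi and 0.24 ± 0.13 with hlh-2 RNAi (SE, adjusted p 0.130 and 0.783 by edgeR). The difference with lin-32 RNAi did pass in a fit of those 2 groups alone (edgeR adjusted p = 0.016) and in fits without the hlh-2 RNAi library numbered 1 or 3 (edgeR adjusted p = 0.047 and 0.018). The gene cyp-29A2 was at 6.98 and 6.39 CPM in L4440, 7.16, 9.0 and 8.20 CPM with hlh-2 RNAi and 8.37, 10.7 and 9.16 CPM with lin-32 RNAi. Again every RNAi library lay above both controls, and the log2 fold change with lin-32 RNAi was 0.50 ± 0.13 (SE, edgeR adjusted p = 0.128). Its relative cyp-29A3, which with cyp-33E2 takes part in eicosanoid synthesis, did not pass (0.22 ± 0.31, SE, edgeR adjusted p = 0.827), nor did cyp-33E2 (0.27 ± 0.12, SE, edgeR adjusted p = 0.391). The neighbour of cyp-25A2, cyp-25A1, was at 31.5 and 29.8 CPM in L4440 and 33.5, 38.4 and 39.3 CPM with lin-32 RNAi (log2 0.28 ± 0.09, SE, edgeR adjusted p = 0.247).

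The lower side held cyp-35B1 (above) and cyp-34A8. The latter was at 17.8 and 19.1 CPM in L4440, 17.6, 16.7 and 15.8 CPM with hlh-2 RNAi and 15.6, 16.9 and 14.6 CPM with lin-32 RNAi. All RNAi libraries lay below both controls, and the log2 fold changes were -0.15 ± 0.08 and -0.24 ± 0.08 (SE, adjusted p 0.783 and 0.252 by edgeR). The genes cyp-36A1 and cyp-37B1 had -0.26 ± 0.13 and -0.38 ± 0.21 (SE, edgeR adjusted p = 0.438 and 0.485). The gene cyp-13A12, known from the behavioural response to restored oxygen, did not pass in either comparison, with log2 fold changes of 0.08 ± 0.28 and -0.03 ± 0.28 (SE). Nor did cyp-35A5, with -0.22 ± 0.23 and 0.13 ± 0.22 (SE).

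**Figure D3:**
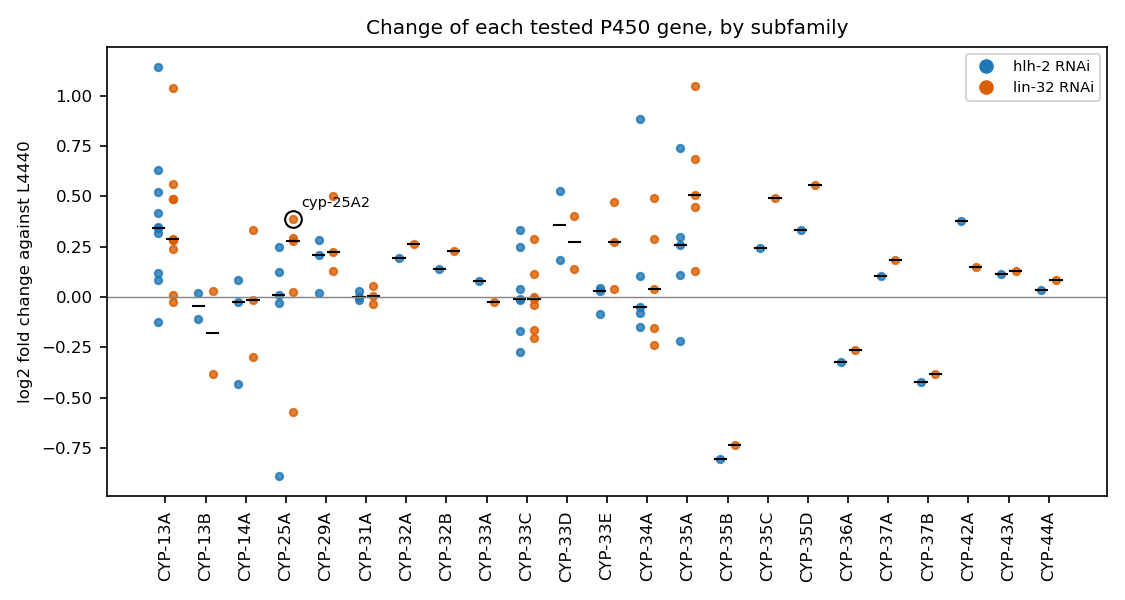
Log2 fold change against L4440 of the 60 tested P450 genes, by subfamily, for hlh-2 RNAi and lin-32 RNAi; horizontal bars are subfamily medians. The circled point, cyp-25A2 in the lin-32 RNAi libraries, is the only one past the threshold, and cyp-35B1 is low in both groups.

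Between the 2 RNAi groups no P450 gene passed the test, 0 of 60 against 0.406% of all tested genes. At an unadjusted p under 0.05 there were 0 higher and 5 lower P450 genes with hlh-2 RNAi, against 4.31% and 3.66% of all tested genes, and DESeq2 called 0. The 5 were cyp-25A3 (log2 difference -0.28), cyp-33E2 (-0.24), cyp-33E3 (-0.55), cyp-35A4 (-0.58) and cyp-35C1 (-0.25). The span of a protein-coding gene on the opposite strand overlaps cyp-33E3. The smallest p on the higher side belonged to cyp-33C5, cyp-33A1, cyp-42A1 and cyp-34A6, with log2 differences from 0.10 to 0.41. The median log2 difference was -0.07, and the libraries did not overlap for 0 higher P450 genes (against 6.81% of all tested genes) and 3 lower ones (5%, against 6.87%), cyp-25A3, cyp-33E3 and cyp-44A1. Libraries of the same number varied together in these groups, and with the replicate number as a block 2 P450 genes passed, both lower in the hlh-2 RNAi libraries, against 0.925% of all tested genes in either direction and 0.357% on the lower side. For cyp-35A2 the blocked log2 difference was -0.25 ± 0.04 (SE, edgeR adjusted p = 0.0084) and for cyp-35C1 -0.26 ± 0.05 (SE, edgeR adjusted p = 0.042). A blocked fit of the 6 RNAi libraries alone was chosen after the data were seen, and no blocked comparison was tried on simulated data. In that fit the differences were the same to 2 decimals for cyp-35A2 and -0.25 for cyp-35C1 (edgeR adjusted p = 2.9e-04 and 0.0047). There 2.79% of all genes tested passed, 1.15% on the lower side. In each of the 3 same-numbered pairs of libraries both genes were lower with hlh-2 RNAi.

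P450 genes also differed between libraries of a group, and both RNAi groups shared these differences. Libraries numbered 3 had more of the CYP-35A genes, cyp-35C1, cyp-34A2 and cyp-34A9, and less of most CYP-13A genes and of cyp-33C8, than those numbered 1. A number is only a label: the sources used here tie it to no batch, day or culture. The pattern was noticed first and tested afterwards on the same libraries, and on simulated data this test made false calls more often than its threshold allows, so its adjusted p may be too small. In the 6 RNAi libraries 12 of 59 tested P450 genes (20.3%) differed with the number at an edgeR adjusted p under 0.05, against 4.77% of all genes tested in them. By the difference between libraries 3 and 1, 6 were higher and 6 lower, against 2.26% and 2.51%. With all 8 libraries in the fit 4 of 60 passed (6.67%, against 0.631%), which were cyp-13A5, cyp-35A2, cyp-35A3 and cyp-35C1. With 1 RNAi library left out in turn the count ran from 7, without the hlh-2 RNAi library numbered 1, to 19, without the lin-32 RNAi library numbered 2. Those 4 genes, cyp-13A2, cyp-33C8 and cyp-34A9 passed in every one of these 6 fits.

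The higher group was led by CYP-35A, a subfamily that foreign compounds induce and that has been tied to fat storage. The gene cyp-35A2 (chromosome V, 7362319 to 7364182, minus strand) was at 43.4 and 55.0 CPM in L4440, 46.9, 55.2 and 74.7 CPM with hlh-2 RNAi in the order of the numbers 1, 2 and 3, and 52.7, 67.8 and 89.8 CPM with lin-32 RNAi. The library numbered 3 was the highest of each RNAi group and lay above both controls. The log2 difference between numbers 3 and 1 was 0.72 ± 0.05 (SE, edgeR adjusted p = 3.0e-09). The gene cyp-35A3 was at 1.995 and 4.72 CPM in L4440, 4.12, 4.50 and 8.63 CPM with hlh-2 RNAi and 5.301, 5.65 and 10.5 CPM with lin-32 RNAi. Here too the number 3 libraries stood apart, by 1.02 ± 0.11 on the log2 scale (SE, edgeR adjusted p = 1.9e-06), while the controls differed from each other by 2.36-fold. Against L4440 cyp-35A3 had log2 fold changes of 0.74 ± 0.41 and 1.05 ± 0.41 (SE) and cyp-35A2 0.26 ± 0.21 and 0.51 ± 0.21 (SE), with edgeR adjusted p from 0.312 to 0.884.

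The remaining CYP-35A genes were scarcer and pointed the same way. The ratio of library 3 to library 1 was 1.504-fold and 1.57-fold for cyp-35A1 in the hlh-2 and lin-32 RNAi groups, 1.28-fold and 1.52-fold for cyp-35A4, and 1.404-fold and 1.06-fold for cyp-35A5, and none of these passed the test. For cyp-35C1, whose values are given above, the difference was 0.42 ± 0.06 (log2, SE, edgeR adjusted p = 4.3e-04). The gene cyp-34A9 was at 2.54, 3.64 and 4.55 CPM with hlh-2 RNAi and 2.34, 4.89 and 4.88 CPM with lin-32 RNAi, with 3.45 and 3.23 CPM in L4440. The number 1 library was the lowest of each group and lay below both controls. The differences were 0.95 ± 0.16 for cyp-34A9, 1.0 ± 0.18 for cyp-34A2 and 0.27 ± 0.06 for cyp-25A1 (log2, SE, edgeR adjusted p from 0.0012 to 0.0069).

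The lower group was led by CYP-13A. The gene cyp-13A5 (chromosome II, 9798277 to 9800362, minus strand) was at 35.5 and 35.3 CPM in L4440, 72.1, 40.8 and 39.9 CPM with hlh-2 RNAi and 69.8, 46.5 and 40.7 CPM with lin-32 RNAi. The number 1 library of each group stood far above the others, and all 6 lay above both controls. The log2 difference between numbers 3 and 1 was -0.81 ± 0.05 (SE, edgeR adjusted p = 1.6e-09), whereas against L4440 cyp-13A5 had 0.52 ± 0.25 and 0.56 ± 0.25 (SE, edgeR adjusted p = 0.761 and 0.392). The genes cyp-13A2 and cyp-13A7 differed by -0.61 ± 0.08 and -1.09 ± 0.22 (log2, SE, edgeR adjusted p = 4.6e-05 and 0.0073).

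Outside CYP-13A, cyp-33C8 was at 12.8 and 13.3 CPM in L4440, 14.2, 9.66 and 8.73 CPM with hlh-2 RNAi and 14.3, 10.5 and 9.36 CPM with lin-32 RNAi. The number 1 library lay above both controls and the other RNAi libraries below both. The log2 difference was -0.65 ± 0.09 (SE, edgeR adjusted p = 9.0e-05). The genes cyp-14A5 and cyp-36A1 differed by -0.40 ± 0.09 and -0.41 ± 0.08 (log2, SE, edgeR adjusted p = 0.019 and 0.012). In cyp-36A1 the libraries numbered 1 stood at 13.4 and 14.2 CPM, beside 14.2 and 15.1 CPM in L4440, and those numbered 3 at 10.4 and 10.3 CPM. The most abundant CYP-33C gene per length, cyp-33C9, stayed between 11 and 12.6 CPM in all 8 libraries, so genes of 1 subfamily did not all differ with the number.

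**Figure D4:**
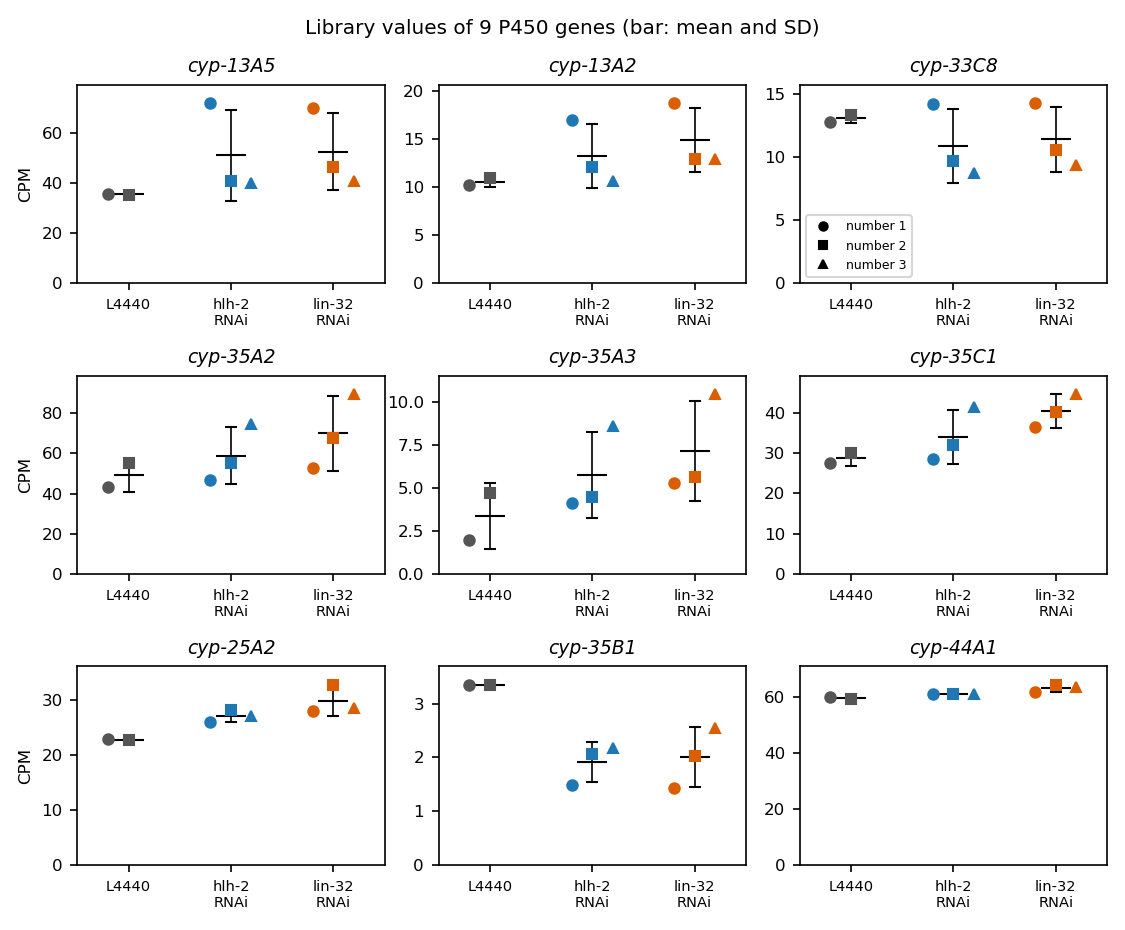
CPM of 9 P450 genes in every library, with marker shape for the number in the label and a bar for the mean and SD of each group (n = 2 for L4440, n = 3 for each RNAi group). The genes cyp-13A5, cyp-13A2 and cyp-33C8 are highest in libraries numbered 1 of both RNAi groups, and cyp-35A2, cyp-35A3 and cyp-35C1 in libraries numbered 3. Every RNAi library lies above both controls in cyp-13A5, cyp-25A2 and cyp-44A1, which is nearly level, and below both in cyp-35B1.

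The shared pattern reached beyond the called genes. The log2 difference between libraries 3 and 1 had the same sign in both RNAi groups for 52 of the 60 tested P450 genes (86.7%), against 63.0% of all 14272 tested genes. Across genes Pearson's r between the groups was 0.77 over the 60 P450 genes and 0.24 over all tested genes, a description only, since genes are not independent replicates. Some related gene families gave a similar r (below), so the shared pattern was not particular to P450 genes. The median size of the difference was 0.35 in the hlh-2 RNAi libraries and 0.27 in the lin-32 RNAi libraries for P450 genes (log2), against 0.11 and 0.10 for all tested genes. The controls carried numbers 1 and 2 only, and their deviations did not follow the same-numbered RNAi libraries, with r over all tested genes of -0.07 and -0.16 with the hlh-2 RNAi and -0.04 and -0.12 with the lin-32 RNAi libraries. No control carries number 3, so values within that number cannot be set against L4440.

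**Figure D5:**
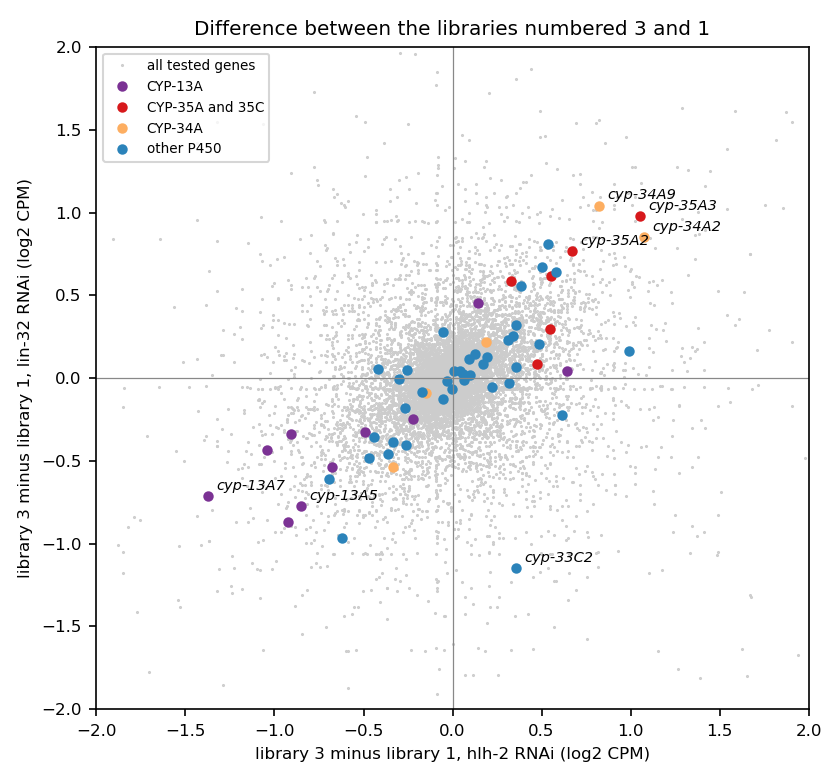
Log2 CPM of library 3 minus library 1 in the hlh-2 RNAi group (horizontal) and the lin-32 RNAi group (vertical), for all tested genes in grey and the 60 tested P450 genes in colour; 26 genes lie outside the axes. P450 genes spread along the rising diagonal, with most CYP-13A genes at the lower left and CYP-35A and cyp-35C1 at the upper right.

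Of the 74 P450 genes, 44 lie in 12 groups of neighbours less than 10 kb apart, and chromosome V holds 31 of the 61 studied here. The CYP-13A group on chromosome II (9779181 to 9807569) holds 8 genes, 7 of them studied. Of these 6 were lower in library 3 than in library 1 in both RNAi groups, with ratios from 0.37 to 0.79, and cyp-13A1, at 0.42 to 0.60 CPM in the RNAi libraries, was not. The CYP-13A genes elsewhere did not all follow: cyp-13A12 had ratios of 0.70 and 0.79, and cyp-13A11 1.63 and 1.03. In the group from cyp-35A5 to cyp-34A10 on chromosome V (3936326 to 3972991) neighbours went apart. There cyp-34A9 had ratios of 1.79 and 2.09, next to cyp-34A8 with 0.90 and 0.94 and near cyp-34A6 with 0.78 and 0.66. These genes are similar in sequence, and reads shared between copies could blur or spread such differences.

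None of 7 tested genes for electron donors and haem transport, which serve P450 proteins, passed in the 3 comparisons without a block. The reductase gene emb-8 stood between 135 and 152 CPM in all 8 libraries. With the replicate block hrg-7, a secreted protease-like protein of haem signalling, was higher in the hlh-2 RNAi than in the lin-32 RNAi libraries by 0.42 (log2, edgeR adjusted p = 0.0012). It was 1 of the 7 (14.3%, against 0.925% of all tested genes). The blocked fit of the 6 RNAi libraries alone was chosen after the data were seen. In it 2 of the 7 passed (28.6%, against 2.79% of all genes tested in them). These were hrg-7 (edgeR adjusted p = 1.4e-06) and the haem importer hrg-1, higher by 0.34 (log2, edgeR adjusted p = 0.0054). The gene hrg-7 was at 65.8 and 75.9 CPM in L4440, 64.9, 91.3 and 90.4 CPM with hlh-2 RNAi and 53.3, 63.6 and 67.1 CPM with lin-32 RNAi. Its number 1 library was the lowest of each RNAi group. With the number 3 of the 7 passed (42.9%, against 4.77% of all genes), hrg-7 and the haem importers hrg-1 and hrg-4. They were higher in library 3 than in library 1 by 0.41, 0.42 and 0.49 (log2, edgeR adjusted p from 1.5e-05 to 0.045).

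The gene daf-9 encodes the P450 that completes dafachronic acid, the ligand of the nuclear receptor DAF-12, and its symbol keeps it outside the name rule. It was at 0.227 and 0.799 CPM in L4440, 1.12, 0.745 and 0.614 CPM with hlh-2 RNAi and 0.593, 0.621 and 0.863 CPM with lin-32 RNAi, so the groups overlapped. Neither it nor any of the other 7 tested genes of that pathway passed in the 3 comparisons. With the number 1 of the 8 passed (12.5%, against 4.77% of all genes), ncr-1, the Niemann-Pick type sterol transporter, at -0.44 (log2, edgeR adjusted p = 0.0089). Of 22 regulators linked to P450 genes 0 passed in the 3 comparisons, with 1, 3 and 0 at an unadjusted p under 0.05, where the shares of all tested genes ran from 3.14% to 6.82% in a direction. They were aha-1, higher with hlh-2 RNAi, and nhr-176 and hlh-30, higher, and ahr-1, lower, with lin-32 RNAi. These names were chosen after their values were seen. With the number 2 of the 22 passed (9.09%, against 4.77% of all genes), both lower in library 3: nhr-8, a nuclear receptor of xenobiotic resistance, at -0.40 (log2, edgeR adjusted p = 0.0017), and daf-16 at -0.16 (edgeR adjusted p = 0.031).

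Other families that process foreign compounds are read against the same shares of all tested genes, 0.203% with hlh-2 RNAi, 0.743% with lin-32 RNAi and 4.77% with the number. Of 58 tested UDP-glucuronosyltransferase (ugt) genes, which attach sugar acids, 2 were higher with hlh-2 RNAi (3.45%) and 3 with lin-32 RNAi (5.17%), and 9 differed with the number (15.5%). Of 35 glutathione S-transferase (gst) genes 1 was lower in each RNAi group (2.86%) and 4 differed with the number (11.4%). Of 30 short-chain dehydrogenase (dhs) genes 1 was lower with hlh-2 RNAi (3.33%), and 6 differed with the number (20%). Of 14 P-glycoprotein (pgp) export genes 0 passed in the 3 comparisons and 5 differed with the number (35.7%). Of 8 mrp export genes 0 passed in the 3 comparisons or with the number. Above 0 with lin-32 RNAi were 73.3% of dhs, 67.2% of ugt, 64.3% of pgp, 50% of mrp and 40% of gst genes. With hlh-2 RNAi the shares were 73.3%, 60.3%, 57.1%, 50% and 25.7% in that order. For P450 genes they were 73.3% and 68.3%. For library 3 minus library 1, Pearson's r between the RNAi groups was 0.80 over pgp and dhs and 0.63 over ugt genes. It was 0.41 over mrp and 0.22 over gst genes, beside 0.77 over P450 genes. Signs were equal for 78.6% of pgp, 80% of dhs, 67.2% of ugt, 62.5% of mrp and 68.6% of gst genes. None of the 5 families was tested as a set.

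Tissue markers stood beside these differences as follows. The summed level of 11 intestinal markers was 1923 and 1850 CPM in L4440, 1773, 1690 and 1781 CPM with hlh-2 RNAi and 1822, 1779 and 1967 CPM with lin-32 RNAi. The protease gene asp-1 made up most of each sum, at 1232 and 1170 CPM in L4440, 958, 953 and 1006 CPM with hlh-2 RNAi and 989, 1035 and 1150 CPM with lin-32 RNAi. Without asp-1 the other 10 summed to 691 and 679.9 CPM in L4440, 815, 737 and 775 CPM with hlh-2 RNAi and 833, 743 and 818 CPM with lin-32 RNAi. The sum of these 10 was above both controls in all 6 RNAi libraries and highest in the library numbered 1 of each RNAi group. In contrast, asp-1 was below both controls in all 6 and highest in the libraries numbered 3. Much of the rise in the sum lay in cpr-1, at 146 and 153 CPM in L4440. That gene was at 249, 193 and 224 CPM with hlh-2 RNAi and 227, 203 and 232 CPM with lin-32 RNAi. Not all of the 10 rose: elt-2, elt-7, vha-6 and nhx-2 were below 0 with hlh-2 RNAi (log2 from -0.11 to -0.01) and elt-7 with lin-32 RNAi (-0.12). The median log2 fold change of the 11 was 0.05 with hlh-2 RNAi and 0.10 with lin-32 RNAi, with 6 and 9 of them above 0. Of the 11, cpr-1 alone passed against L4440, higher by 0.57 with hlh-2 RNAi and 0.56 with lin-32 RNAi (log2, edgeR adjusted p = 0.020 and 0.012). That is 9.09% of the list in each comparison, against 0.203% and 0.743% of all tested genes. With the number act-5, cpr-1 and vha-6 passed the joint test, 3 of the 11 (27.3%, against 4.77% of all genes, edgeR adjusted p from 0.0020 to 0.048). Their differences between libraries 3 and 1 were -0.10 ± 0.05, -0.06 ± 0.05 and -0.10 ± 0.04 (log2, SE). For cpr-1 library 2 was the lowest of each RNAi group, and library 3 lay above library 1 with lin-32 RNAi.

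Of the 5 markers of excretory cell and glia, aqp-8, an aquaporin of the excretory cell, was at 46.8 and 47.9 CPM in the RNAi libraries numbered 1 and between 16.6 and 29.8 CPM in the other 6 libraries. The other 4 summed to between 64.6 and 68.9 CPM in all 8 libraries, so aqp-8 carried nearly all of the difference in the list beside that of cyp-13A5. With the number aqp-8 and ptr-10 passed the joint test, 2 of the 5 (40%, against 4.77% of all genes, edgeR adjusted p = 2.7e-11 and 0.030). Between libraries 3 and 1 aqp-8 differed by -0.98 ± 0.07, lower in library 3, and ptr-10 by 0.37 ± 0.29 (log2, SE). For ptr-10 library 2 was the highest of each RNAi group. Hypodermal markers summed to between 353 and 372 CPM and muscle markers to between 1071 and 1147 CPM, with overlapping groups. Germline markers summed to 2604 and 2625 CPM in L4440. They summed to 2539, 2497 and 2479 CPM with hlh-2 RNAi and 2548, 2382 and 2513 CPM with lin-32 RNAi, all below both controls. Neuronal markers summed to 306 and 308 CPM in L4440. They summed to 313, 321 and 313 CPM with hlh-2 RNAi and 317, 318 and 315 CPM with lin-32 RNAi, all above both controls. In each comparison with L4440, 1 of 10 germline markers was above 0. Of 10 neuronal markers 8 and 5 were, and none of either list passed. Single markers differed within these sums. The hypodermal collagen gene rol-6 had 19 and 19 counts in L4440, 15, 14 and 18 with hlh-2 RNAi and 4, 1 and 0 with lin-32 RNAi. It passed with lin-32 RNAi against L4440 and between the RNAi groups (edgeR adjusted p = 0.012 and 0.040). In both it was 1 of 10 hypodermal markers (10%, against 0.743% and 0.406% of all tested genes). The muscle myosin gene myo-3 was higher with hlh-2 RNAi than with lin-32 RNAi by 0.24 (log2, edgeR adjusted p = 0.031), 1 of 10 muscle markers (10%, against 0.406%). The collagen gene dpy-7 differed with the number by 0.53 (log2, edgeR adjusted p = 0.0031), 1 of 10 hypodermal markers (10%, against 4.77% of all genes). The part of tissue makeup in the P450 differences was not tested.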

How the data were processed

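Whole nematodes were sequenced in 8 libraries, from total RNA isolated with QIAzol and the TruSeq RNA v2 kit per the labels' protocols. The submitters' processing notes name featureCounts 1.4.6-p4, TopHat2 2.1.0 and bcl2fastq 1.8.4 beside the build WBcel235, and no source at hand states the count settings. The authors deposited a table of raw read counts by WormBase gene ID, and these whole numbers were used unchanged. Symbols matched 43693 IDs, and coordinates and exon lengths came from the WBcel235 annotation of release 115. No library repeated another: replicates differed by 5.58 to 16.0 in chi-square per degree of freedom. One CPM stands for 22.05 to 35.4 counts after scaling.

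Genes were kept with filterByExpr, scaled by TMM and fitted with edgeR 4.0.16 (R 4.3.3) by quasi-likelihood, with the group as the only term in all 8 libraries. Standard errors come from the F statistic. Alternatives used DESeq2 1.42.0, limma 3.58.1, other scaling and filters, a block and left-out libraries. The test of the replicate number is a joint test of both number terms beside the group, fitted to the 6 RNAi libraries, and its log2 value is library 3 minus library 1. It was added after the data were seen. The pairing check correlated deviations from group means across genes: equal numbers of the RNAi groups gave 0.265, 0.194 and 0.191, from the data and not from the labels. The comparison of lin-32 RNAi with L4440 and the test of the number were tried on simulated data. Signs were recovered in the fits of all 8 libraries. False calls took a larger share than the threshold, most of all in the test of the number. The blocked comparisons were not simulated.

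The P450 genes and lists were chosen with earlier results of these data known. Named genes are those past the threshold, the 4 smallest p in each direction and comparison, the 8 highest per length, the highest of each subfamily of 3 or more, a list with known roles, and those that differed with the number. No sequence is shown, and promoter motifs were not analysed here.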

Additional observations from a re-analysis of the deposited data

How the results depend on the processing

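Limits first: L4440 has 2 libraries, so a control left out leaves 1, which is then assumed to vary like the other groups, and low P450 genes rest on 10 to 50 counts. Counts of calls are given as P450 genes and then all tested genes. Without a filter on low counts they were 6 and 223 for hlh-2 RNAi against L4440, 10 and 610 for lin-32 RNAi against L4440, 2 and 342 between the RNAi groups, and 19 and 1063 for the replicate number. With the replicate block they were 2 (cyp-13A5 higher, cyp-35B1 lower) and 72, 6 (cyp-13A2, cyp-13A5, cyp-25A2, cyp-35A2 and cyp-35C1 higher, cyp-35B1 lower) and 350, and 2 and 132, and in the 6 RNAi libraries alone, a setting chosen after seeing the data, 2 and 386; the numbers did not pair the L4440 libraries. DESeq2 gave 47, 178 and 91 calls over all genes. For lin-32 RNAi against L4440 the P450 count was 0 with limma-voom, where cyp-25A2 had an adjusted p of 0.0587, and 2, cyp-25A2 and cyp-35C1, in a fit of only those groups. The adjusted p of cyp-35B1 was 0.0446 with hlh-2 RNAi and 0.0267 with lin-32 RNAi under the block, and that of cyp-35C1 0.0093 with lin-32 RNAi. The test of the number gave 4 and 90 calls with all 8 libraries. With 1 library left out in turn all-gene calls ran from 3 to 31, from 17 to 157 and from 25 to 93, P450 calls with lin-32 RNAi from 0 to 2, and those for the number from 7 to 19, with 505 to 1833 over all genes. The median log2 fold change of P450 genes with lin-32 RNAi was 0.16 with library size alone, 0.13 with a filter of 1 CPM, 0.12 with the block and 0.13 for genes with at least 50 counts, and ran from 0.11 to 0.19 with libraries left out. No direction of a P450 gene examined under these settings reversed. The cause of these differences was not tested.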
